A study of Mus musculus with 12 samples.

Results

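The NRF2 antioxidant and glutathione genes described here are 10 genes taken by name from the 54532 genes listed for each library: *Hmox1*, *Nqo1*, *Gclc*, *Gclm*, *Srxn1*, *Txnrd1*, *Slc7a11*, *Gpx4*, *Prdx1* and *Sod2*. The rule that names them uses no measured value, although earlier results of these data were known when it was set, and all 10 were found as 1 row each. The question put to them was whether CD8+ T cells show an oxidative stress response to a fatty acid. RNA-seq was measured in primary CD8+ T cells of mice, grown in culture and activated. An siRNA either without a target (siNTC) or directed at *Creb1* was delivered to them; *Creb1* encodes the cAMP-responsive transcription factor CREB. They were then kept for 24 hours with the solvent DMSO or with trans-vaccenic acid (TVA), a trans fatty acid of ruminant milk and meat. Each siRNA was combined with DMSO (the groups called siNTC and si*Creb1*) or with the fatty acid (siNTC plus TVA, si*Creb1* plus TVA), and each of these 4 groups had 3 libraries. The labels give the genotype as WT for siNTC cells and as *Creb1* KD for si*Creb1* cells, and they give no age of the animals. Every group shared the activation, the siRNA delivery and, by the study's general siRNA protocol, a first culture in medium with 2-mercaptoethanol, a reducing agent, followed by low-serum delivery medium with IL-2. Knockdown with siRNA is transient and partial, and nothing in the labels says whether the libraries of a group came from separate animals, so the p-values below measure only the spread between libraries.

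NRF2, encoded by *Nfe2l2*, is the transcription factor that cells use against oxidants and electrophiles. KEAP1 normally holds it for destruction through a CUL3 ubiquitin ligase. When reactive cysteines of KEAP1 are modified, NRF2 accumulates, pairs with a small MAF protein and binds antioxidant response elements in its target genes, some of which are held silent by the haem-sensitive repressor BACH1. The members cover the main arms of the defence. *Slc7a11* imports cystine, *Gclc* and *Gclm* encode the catalytic and modifier subunits of the enzyme that makes the precursor of glutathione, and *Gpx4* uses glutathione to reduce lipid peroxides in membranes. *Prdx1* destroys hydrogen peroxide, *Srxn1* repairs over-oxidized peroxiredoxins and *Txnrd1* recharges thioredoxin with NADPH. *Hmox1* degrades haem, *Nqo1* reduces quinones, and *Sod2* removes superoxide in mitochondria. Activated T cells make glutathione and thioredoxin to support growth and proliferation.

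Promoter sequence was read for the members because NRF2 and CREB recognise short motifs near gene starts. The RefSeq table for GRCm38.p6, with 250 bases before and 50 bases after each annotated start, held 13 windows for 8 of the 10 members; *Hmox1* and *Gclc* had no entry. The core of the antioxidant response element, TGACNNNGC on either strand, was present for 4 of these 8 members and for 13.99% of the 27025 genes in the table. The stretches that hold it are shown 5′ to 3′ in the direction of the gene, with the match in capitals, here always on the reverse strand.
Gclm, chr3:122245413-122245441: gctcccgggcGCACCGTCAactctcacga
Srxn1, chr2:152105542-152105570: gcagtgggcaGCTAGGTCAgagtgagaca
Txnrd1, chr10:82859104-82859132: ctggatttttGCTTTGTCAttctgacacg
Prdx1, chr4:116685456-116685484: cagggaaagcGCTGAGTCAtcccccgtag
The match began 134 bases before the start in *Gclm*, 92 before it in *Txnrd1* and 133 before it in *Prdx1*, and at base 29 after the start in *Srxn1*. The full CREB site TGACGTCA was in no member window and in 2.031% of genes. Its shorter form, TGACG on either strand, was found for 4 of the 8 members and for 23.05% of genes. In *Gclm* it lies inside the antioxidant match shown above. The matches in the 3 members reported below to pass a test for the knockdown are shown with TGACG in capitals, again on the reverse strand.
Srxn1, chr2:152105429-152105453: ccacgctgtgCGTCAcccgcgcctc
Txnrd1, chr10:82859206-82859230: agtttgcttcCGTCAggcctcgcgt
Gpx4, chr10:80053523-80053547: caataagagaCGTCAgtgggcgtgc
Gpx4, chr10:80053965-80053989: cggcctggtgCGTCAcagtcggcgg
These matches describe letters in a window, and no binding was measured in these data.

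The deposited values are FPKM, read counts scaled by the length of the gene and the size of the library. They could be turned back into whole reads, which summed to between 16660234 and 24602484 per library. *Creb1* itself lay between 10.3 and 12.4 FPKM in the 6 siNTC libraries and between 1.17 and 1.81 FPKM in the 6 si*Creb1* libraries, so that 13.4% of its mean was left without TVA and 13.1% with TVA. All 7 markers of CD8 T cells were present, with a summed level of 1839 to 1944 FPKM. The 6 erythroid markers summed to 0.025 to 0.664 FPKM, with *Hba-a2* and *Hbb-bs* at 0 in every library. Summed levels were 9.48 to 14.2 FPKM for B cell markers and 8.04 to 12.4 FPKM for macrophage and monocyte markers. They were 4.69 to 6.72 FPKM for NK cell markers and 3.98 to 5.82 FPKM for CD4 T cell markers. The 3 platelet markers *Ppbp*, *Pf4* and *Itga2b* were the other-cell markers with the highest summed level. With siNTC their sum was 163 to 171 FPKM under DMSO and 155 to 160 FPKM under TVA. With si*Creb1* it was 99.5 to 105 FPKM under DMSO and 121 to 127 FPKM under TVA, so it moved with the knockdown. In bulk samples fewer cells of a type and less RNA per cell cannot be told apart.

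Of the 10 members, 6 were expressed at a level that could be tested with the main method, a mean of at least 1 FPKM over the 12 libraries, and 4 were not. Over all 12 libraries the mean was 62.8 FPKM for *Gpx4* and 61.1 for *Prdx1*, the glutathione- and thioredoxin-linked peroxidases. It was 19.6 FPKM for *Gclc*, 12.5 for *Txnrd1*, 6.42 for *Sod2* and 4.12 for *Gclm*. The catalytic subunit *Gclc* thus stood well above its modifier *Gclm* on this per-length scale. In the deposited values *Gpx4* and *Prdx1* did not keep an order. *Gpx4* was the higher of the pair in 5 of the 6 siNTC libraries and in 0 of the 6 si*Creb1* libraries. With the reads of its near-identical pseudogene *Gpx4-ps2* added, as described below, *Gpx4* was 64.1 to 87.8 FPKM and above *Prdx1* in every library. *Hmox1* had a mean of 0.765 FPKM, *Srxn1* 0.679, *Nqo1* 0.294 and *Slc7a11* 0.0424. These 4 are the members best known for their sharp induction by oxidants, and none of them passed 1.16 FPKM in any library, with 9 to 45 reads per library for *Hmox1*, 25 to 61 for *Srxn1*, 3 to 18 for *Nqo1* and 1 to 23 for *Slc7a11*. Reads of the 6 higher members ran from 427 for *Gclm* to 4479 for *Prdx1*, so their counting error was smaller.

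**Figure D1:**
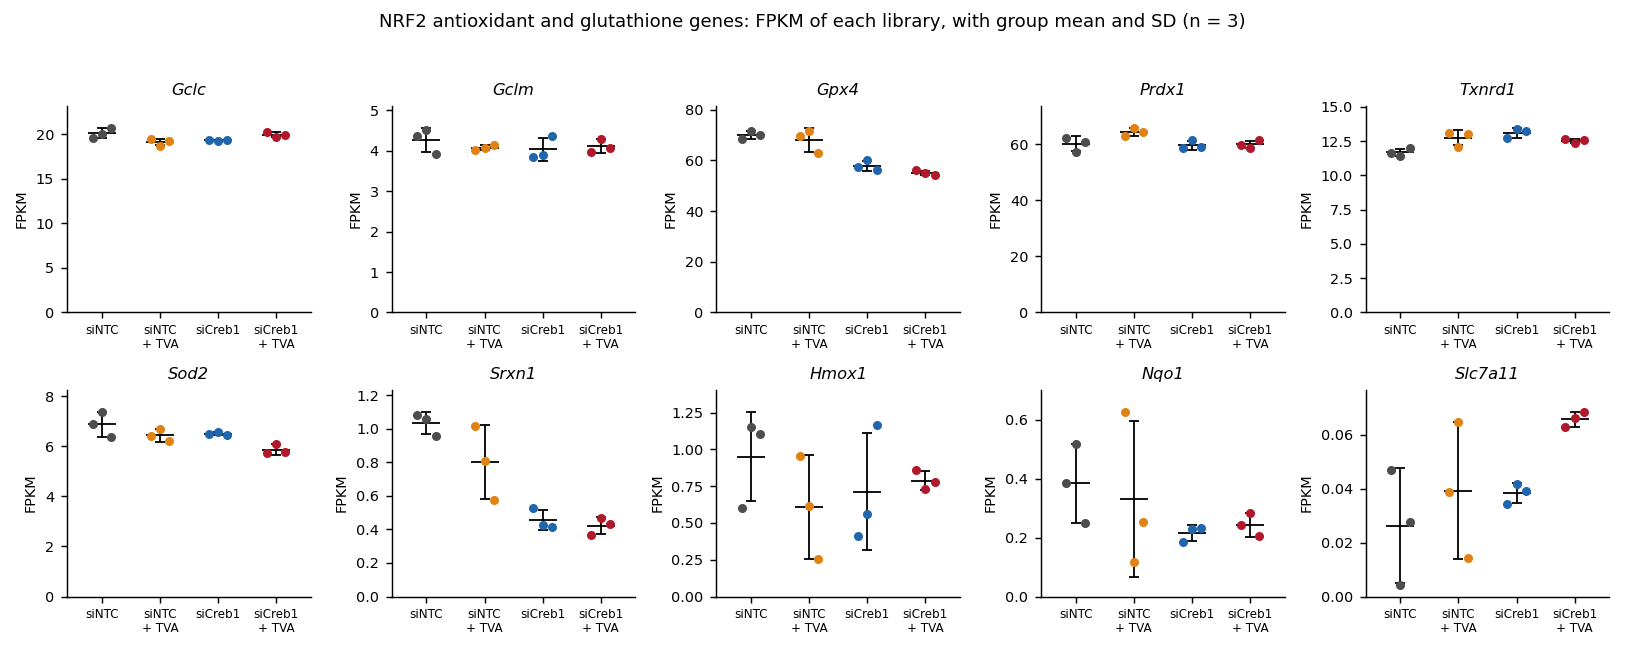
Each panel plots 1 member, with the 4 groups on the horizontal axis and FPKM from 0 on the vertical axis; points are the 3 libraries and bars the group mean and SD. The 4 groups lie at nearly one level for Gclc and Gclm, Gpx4 and Srxn1 sit lower in both si*Creb1* groups, and Hmox1, Nqo1 and Slc7a11 stay at or under 1.16 FPKM with wide scatter.

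None of the 6 tested members passed the test for TVA in siNTC cells, and every 95% interval lay between −0.19 and 0.20 on the log2 scale. The count was 0 of 6 at a Benjamini-Hochberg adjusted p under 0.05 from limma, against 7.38% of the 11550 genes tested, and 3 of 6 (*Prdx1*, *Gclc* and *Txnrd1*) at an unadjusted p under 0.05, against 20.9% of all genes. Limma-voom on the recovered reads of 9 members, with *Nqo1* left out for too few reads, also called 0, against 6.99% of 13866 genes. The median log2 change of the 6 members was −0.05, beside −0.01 for all tested genes.

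Neither subunit of the enzyme that starts glutathione synthesis rose. *Gclc* (ENSMUSG00000032350; chromosome 9 of GRCm38, from 77754535 to 77794485) had 19.6, 20.0 and 20.7 FPKM in siNTC and 19.5, 18.7 and 19.2 FPKM in siNTC plus TVA. The 3 TVA libraries lie just under the 3 controls. The log2 change of FPKM + 1 was −0.07 (95% interval −0.13 to −0.01; Benjamini-Hochberg adjusted p = 0.175 from limma). *Gclm* (ENSMUSG00000028124; chromosome 3, from 122245557 to 122270732) had 4.36, 4.51 and 3.93 FPKM in siNTC and 4.01, 4.08 and 4.13 FPKM with TVA, groups that overlap. Its log2 change was −0.05 (95% interval −0.18 to 0.07; adjusted p = 0.67 from limma). *Gclm* shares positions with *Gm17494* on the other strand, which had at most 13 reads in a library; whether the counting used strand is not given in the sources used here. The partner of xCT in the cystine transporter, *Slc3a2*, and glutathione synthetase, *Gss*, had log2 changes of 0.06 and 0.11, with adjusted p-values of 0.287 and 0.444 from limma.

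The lipid peroxide reductase *Gpx4* (ENSMUSG00000075706; chromosome 10, from 80047166 to 80056439) had 68.4, 71.7 and 70.0 FPKM in siNTC and 69.8, 71.7 and 62.7 FPKM in siNTC plus TVA. One TVA library lies below the controls and the other two at their level. The log2 change was −0.04 (95% interval −0.14 to 0.06; adjusted p = 0.659 from limma). Mitochondrial *Sod2* (ENSMUSG00000006818; chromosome 17, from 13006846 to 13040063) had 6.90, 7.36 and 6.36 FPKM without and 6.40, 6.71 and 6.21 FPKM with TVA. *Sod2* shares 3110 bases at 98.3% identity with a transcript of *Rps6ka2*, whose row held 6.585% of their joint reads. The groups overlap, and the log2 change was −0.08 (95% interval −0.19 to 0.03; adjusted p = 0.402 from limma).

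Among the 6, the thioredoxin-linked members had the only estimates above 0. *Txnrd1* (ENSMUSG00000020250; chromosome 10, from 82833951 to 82897712) had 11.6, 11.4 and 11.98 FPKM in siNTC and 13.1, 12.1 and 12.99 FPKM in siNTC plus TVA. All 3 TVA libraries lie above the controls, the second only just. The log2 change was 0.12 (95% interval 0.04 to 0.20; adjusted p = 0.085 from limma), and without the second TVA library it was called, with a log2 change of 0.15 and an adjusted p of 0.038 from limma. *Prdx1* (ENSMUSG00000028691; chromosome 4, from 116685544 to 116700822) had 62.4, 57.3 and 61.0 FPKM without TVA and 62.9, 65.9 and 64.3 FPKM with it. The TVA libraries again lie above the controls, with a log2 change of 0.09 (95% interval 0.02 to 0.17; adjusted p = 0.143 from limma).

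Of the 4 low members, 3 are given from limma-voom, which weights each value by its read depth; this fit was added after the low values were seen. *Nqo1* had too few reads for it and is given by its values. Haem oxygenase *Hmox1* (ENSMUSG00000005413; chromosome 8, from 75093621 to 75100589) had 0.601, 1.15 and 1.10 FPKM in siNTC and 0.958, 0.618 and 0.253 FPKM with TVA. The groups overlap and the estimate is downward, with a log2 change of −0.77 (95% interval −1.66 to 0.13; adjusted p = 0.382 from limma-voom). Sulfiredoxin, *Srxn1* (ENSMUSG00000032802; chromosome 2, from 152105516 to 152111376), had 1.08, 1.06 and 0.958 FPKM without and 1.02, 0.810 and 0.575 FPKM with TVA. Its log2 change was −0.40 (95% interval −0.91 to 0.12; adjusted p = 0.438 from limma-voom). Neither of these NRF2 targets had an estimate above 0 in TVA-treated control cells.

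The quinone reductase *Nqo1* (ENSMUSG00000003849; chromosome 8, from 107388225 to 107403206) had 0.387, 0.518 and 0.248 FPKM in siNTC and 0.627, 0.116 and 0.253 FPKM with TVA, that is 12, 14 and 8 reads against 18, 3 and 8. The cystine transporter *Slc7a11* (ENSMUSG00000027737; chromosome 3, from 49892526 to 50443614) had 13, 1 and 8 reads without and 10, 15 and 4 reads with TVA, and a log2 change of 0.67 (95% interval −0.66 to 2.00; adjusted p = 0.656 from limma-voom). At this depth all but a large change of either gene could be missed. One *Slc7a11* transcript in GENCODE vM21 holds 373 bases that are 96.2% identical to a transcript of the highly expressed tubulin gene *Tuba1b*, so that even the few reads placed on *Slc7a11* are uncertain.

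**Figure D2:**
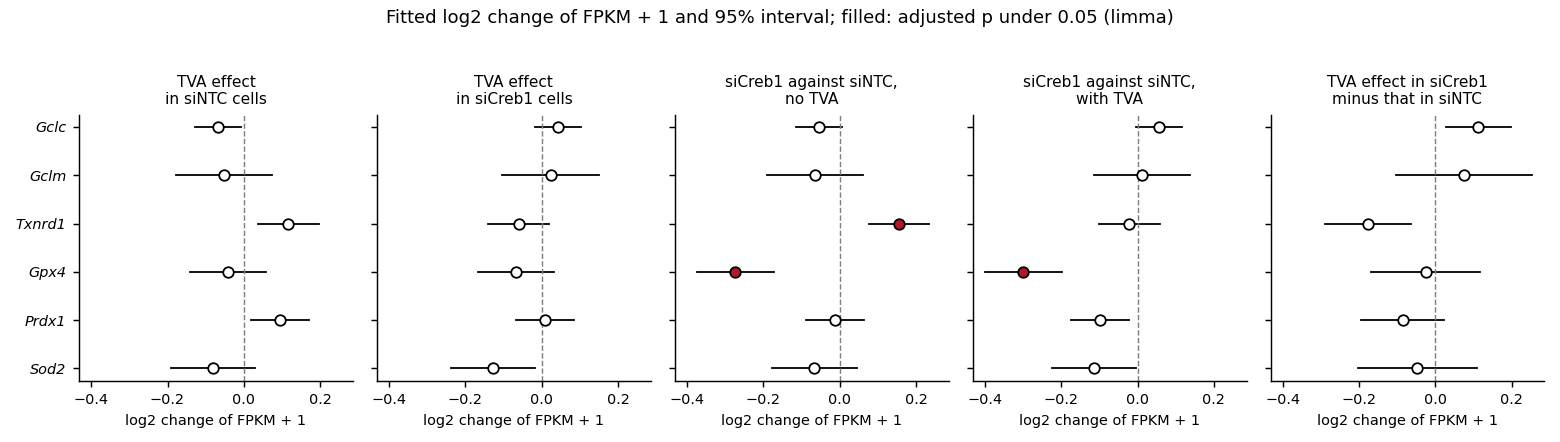
Fitted log2 change of FPKM + 1 (horizontal axis) for the 6 tested members (rows) in each of 5 comparisons (panels); lines are 95% intervals and filled points have an adjusted p under 0.05. In both TVA panels every point is open and every interval lies between −0.24 and 0.20, and the filled points are Gpx4 in both knockdown panels and Txnrd1 in the knockdown without TVA.

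In si*Creb1* cells the TVA effect was called for 0 of 6 members (limma, adjusted p), against 0.537% of all tested genes. At an unadjusted p under 0.05 the count was 1, *Sod2*, against 9.58% of all genes, and limma-voom called 0 of 9 against 1.07%. *Sod2* had 6.50, 6.59 and 6.45 FPKM in si*Creb1* and 5.73, 6.11 and 5.78 FPKM in si*Creb1* plus TVA. The TVA libraries all lie below the others, with a log2 change of −0.13 (95% interval −0.24 to −0.02; adjusted p = 0.445 from limma). The other 5 had log2 changes from −0.07 for *Gpx4* to 0.04 for *Gclc*. *Hmox1* had 0.410, 0.562 and 1.16 FPKM without and 0.857, 0.730 and 0.776 FPKM with TVA, and a log2 change of 0.28 (95% interval −0.54 to 1.10; adjusted p = 0.868 from limma-voom). *Slc7a11* had 10, 13 and 12 reads in si*Creb1* and 21, 23 and 21 reads in si*Creb1* plus TVA. These groups do not overlap in FPKM, and the mean with TVA was 1.71 times that without. The log2 change was 0.76 (95% interval −0.22 to 1.75; adjusted p = 0.611 from limma-voom), which did not pass the test. The summed level of 8 macrophage markers, of which *Lyz2* and *Cd68* reached a mean of 1 FPKM, was 8.46 to 10.7 FPKM in si*Creb1* and 11.1 to 12.4 FPKM in si*Creb1* plus TVA; its part in any change was not tested.

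The TVA effect on a member did not differ detectably between siNTC and si*Creb1* cells. The interaction was called for 0 of 6 members against 2.24% of all tested genes, at an unadjusted p under 0.05 for 2 members against 14.3%, and for 0 of 9 with limma-voom against 3.09%. The pair was *Txnrd1*, whose TVA effect was lower in si*Creb1* cells by a log2 difference of −0.18 (95% interval −0.29 to −0.06; adjusted p = 0.124 from limma), and *Gclc*, whose effect was higher by 0.11 (95% interval 0.03 to 0.20; adjusted p = 0.195 from limma).

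Knockdown of *Creb1* lowered *Gpx4* with and without TVA and raised *Txnrd1* without it. In cells without TVA, 2 of 6 members were called against 13.7% of all tested genes, *Gpx4* lower and *Txnrd1* higher. *Gpx4* had 57.2, 60.0 and 56.2 FPKM in si*Creb1*, all below the lowest siNTC library at 68.4 FPKM. It fell by 0.27 on the log2 scale (standard error 0.05, 95% interval −0.37 to −0.17; adjusted p = 0.0036 from limma), to 0.825 times the siNTC mean. *Txnrd1* had 12.7, 13.4 and 13.3 FPKM in si*Creb1*, all above the highest siNTC library at 11.98 FPKM. It rose by 0.16 on the log2 scale (standard error 0.04, 95% interval 0.08 to 0.23; adjusted p = 0.018 from limma). This call was kept in 19 of 23 other settings and lost without siNTC replicate 2, without si*Creb1* replicate 2 or 3, and with only the 6 libraries compared, with an adjusted p of at most 0.064 from limma.

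In the presence of TVA, 1 of 6 members was called against 10.1% of all tested genes, and it was again *Gpx4*. It had 56.1, 54.9 and 54.3 FPKM in si*Creb1* plus TVA against 69.8, 71.7 and 62.7 FPKM in siNTC plus TVA, again without overlap. It fell to 0.809 times the mean without knockdown, a log2 change of −0.30 (standard error 0.05, 95% interval −0.40 to −0.20; adjusted p = 0.00397 from limma). Both comparisons kept an adjusted p under 0.05 for *Gpx4* in all 24 other settings, with log2 changes between −0.36 and −0.23. *Txnrd1* had a log2 change of −0.02 with TVA present, where its level of 12.6, 12.4 and 12.6 FPKM lay within the range of siNTC plus TVA.

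*Gpx4* has a transcribed pseudogene, *Gpx4-ps2*, that is 99.7% identical over 762 bases, and the counting could split reads between them. The pseudogene row held 15.5% of their joint reads. Its level was 26.8, 34.7 and 26.6 FPKM in siNTC cells and 31.9, 25.9 and 26.9 FPKM once TVA was added. After knockdown it was 22.5, 19.2 and 23.0 FPKM, and with TVA 21.8, 20.6 and 21.3 FPKM, all below the siNTC values. With its reads added to *Gpx4*, the log2 changes were −0.30 without TVA and −0.32 with TVA, with adjusted p-values of 0.00208 and 0.00287 from limma. The platelet markers given above were lower in both si*Creb1* groups too, and their part in the level of *Gpx4* was not tested.

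*Srxn1* was the low member that passed a test for the knockdown, in cells without TVA. It had 0.526, 0.428 and 0.417 FPKM in si*Creb1* and 0.370, 0.468 and 0.433 FPKM in si*Creb1* plus TVA, that is 31, 27 and 26 and then 25, 33 and 27 reads. All 6 values lie below all 6 siNTC values, of which the lowest is 0.575 FPKM. In limma-voom it fell by 1.15 on the log2 scale without TVA (95% interval −1.72 to −0.58; adjusted p = 0.0051), where 14.4% of 13866 genes were called. With TVA, where 11.2% were called, the log2 change was −0.84 (95% interval −1.45 to −0.24; adjusted p = 0.064 from limma-voom). Limma on FPKM with no filter on low genes called the first as well, with an adjusted p of 0.0262, and gave 0.132 for the second. No overlapping or near-identical gene was found for *Srxn1*. The platelet markers, like *Srxn1* and *Gpx4*, were lower in both si*Creb1* groups, and their part was not tested. In si*Creb1* cells the platelet sum was 99.5 to 105 FPKM under DMSO and 121 to 127 FPKM under TVA. The mean of *Srxn1* went from 0.457 to 0.424 FPKM and that of *Gpx4* from 57.8 to 55.1 FPKM. Neither of these 2 genes passed the test for TVA there, with adjusted p-values of 0.956 from limma-voom and 0.706 from limma.

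The remaining members did not pass the test after knockdown. Without TVA, *Gclc* had a log2 change of −0.05, *Gclm* −0.06, *Prdx1* −0.01 and *Sod2* −0.07. With TVA they had 0.06, 0.01, −0.10 and −0.11, of which *Prdx1* came nearest to the threshold (adjusted p = 0.0994 from limma). *Prdx1* had 58.7, 61.4 and 58.9 FPKM in si*Creb1* and 59.9, 58.8 and 61.4 FPKM in si*Creb1* plus TVA, so the group that stood highest for this gene was siNTC plus TVA. *Hmox1* and *Slc7a11* had log2 changes of −0.45 and 0.91 without TVA, with adjusted p-values of 0.526 and 0.38 from limma-voom. *Nqo1* had 6, 8 and 8 reads in si*Creb1* and 9, 11 and 7 in si*Creb1* plus TVA, and the reads of *Slc7a11* are given above. In FPKM every si*Creb1* value of *Nqo1* lay below every siNTC value, with means of 0.216 and 0.385. The adjusted p was 0.58 from limma with no filter on low genes. With TVA present its groups overlapped.

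The genes with a pattern over the 12 libraries most like that of *Gpx4* were *H2-Q6*, a class I MHC gene, the chemokine receptor *Cxcr6* and *Dph3*. The measure was the root mean square difference of centred log2(FPKM + 1) values, which was 0.046, 0.051 and 0.052 for these genes, beside 0.154 for the variation of *Gpx4* about its own mean. For *Txnrd1* they were *Ppat*, which encodes the first enzyme of purine synthesis, the chloride transporter *Clcn3* and the RNA-binding protein gene *Hnrnpr*, with 0.026, 0.029 and 0.033 beside 0.065 for *Txnrd1* itself. All libraries are shared between these values, so they describe likeness only.

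The upstream regulators *Nfe2l2* and *Keap1* were not called in any of the 5 comparisons. *Nfe2l2* had a mean of 21.9 FPKM in siNTC and 21.0 FPKM in siNTC plus TVA, and *Keap1* had 16.96 and 17.4 FPKM. After knockdown the means were 21.0 FPKM without and with TVA for *Nfe2l2*, and 16.9 and 17.8 FPKM for *Keap1*. The repressor *Bach1* had 10.4, 10.4 and 10.2 FPKM in siNTC and 8.75, 9.01 and 8.22 FPKM in si*Creb1*, and fell by 0.23 on the log2 scale without TVA (adjusted p = 0.0056 from limma). With TVA in siNTC cells its level was 9.77, 8.93 and 9.14 FPKM, a log2 change of −0.14 (adjusted p = 0.0743 from limma) that was called once the first TVA library was left out (adjusted p = 0.0428). *Sqstm1* encodes p62, which captures KEAP1 and is itself an NRF2 target. It fell by 0.21 with TVA in siNTC cells (adjusted p = 0.005 from limma), from 58.6, 55.2 and 56.1 FPKM to 49.98, 49.86 and 46.3 FPKM. Knockdown without TVA also lowered *Sqstm1*, by 0.15 (adjusted p = 0.0202 from limma; kept in 17 of 23 other settings), and *Cul3*, the ligase scaffold, by 0.13 (adjusted p = 0.027 from limma; kept in 13 of 23). NRF2 activity depends on the protein, which was not measured here.

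Of 132 other genes, in 11 lists of the redox system and of ATF4 targets, 106 were expressed enough to be tested. TVA in siNTC cells raised 6 of them (5.66%) and lowered 5 (4.72%), beside 4.49% and 2.88% of all tested genes. In si*Creb1* cells TVA changed 0 of 106 with limma, beside 0.537% of all tested genes. At an unadjusted p under 0.05 the count was 16, beside 9.58% of all genes. In siNTC cells that count was 31, beside 20.9%. Limma-voom called 1 of 119 in si*Creb1* cells, the thioredoxin inhibitor *Txnip*, beside 1.07% of 13866 genes. Knockdown without TVA raised 6 (5.66%) and lowered 20 (18.9%), beside 6.52% and 7.21% of all genes, and with TVA it raised 1 (0.943%) and lowered 13 (12.3%), beside 4.64% and 5.51%. With median-ratio scaling these splits were 6 and 20, and 1 and 10. On the TPM scale they were 6 and 8, and 2 and 1, and with quantile normalization 7 and 17, and 2 and 4. The excess of falls over rises thus depends on the scaling with and without TVA. TPM moved the median log2 change of all tested genes to 0.04 in both knockdown comparisons. Shares of all tested genes called under these scalings were not counted. For TVA in siNTC cells TPM gave 5 higher and 2 lower. The median log2 change of the 106 genes was −0.01 for TVA in siNTC cells, −0.02 for TVA in si*Creb1* cells, −0.05 for knockdown without TVA and −0.06 with TVA. Over all tested genes these medians were −0.01, 0.00, 0.00 and −0.01. The shares of all tested genes given here stand behind the counts of each single list as well.

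**Figure D3:**
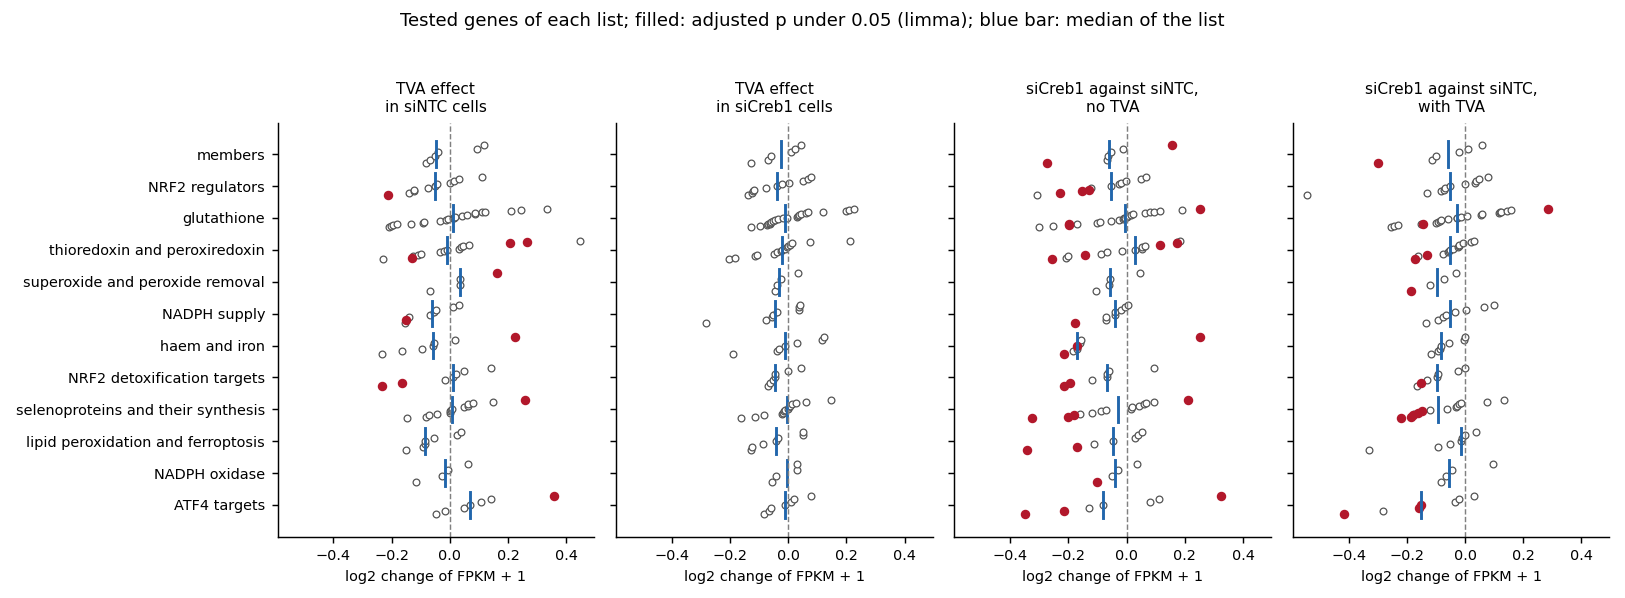
Log2 change of FPKM + 1 (horizontal axis) of every tested gene of the members and of the 11 other lists (rows) in 4 comparisons (panels); filled points have an adjusted p under 0.05 and the blue bar is the median of a list. The first panel has 11 filled points on both sides of 0, and the second none. The 2 knockdown panels have most of theirs below 0, among them most of those in the selenoprotein list.

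In the thioredoxin and peroxiredoxin list, 2 of 15 genes rose and 1 fell with TVA in siNTC cells. Thioredoxin itself, *Txn1*, had 89.4, 95.7 and 95.1 FPKM in siNTC and 112, 113 and 112 FPKM in siNTC plus TVA, and it rose by 0.27 on the log2 scale (adjusted p = 0.000177 from limma). It is the substrate of the *Txnrd1* product. Mitochondrial peroxiredoxin *Prdx3* had 39.1, 39.9 and 38.7 FPKM in siNTC and 44.0, 47.2 and 45.2 FPKM with TVA, a rise of 0.21 (adjusted p = 0.00218 from limma). In both genes every TVA library lies above every control. *Sesn1*, a stress-regulated sestrin, fell by 0.13 (adjusted p = 0.0291 from limma), and *Sod1*, the cytosolic superoxide dismutase, rose by 0.16 (adjusted p = 0.0338 from limma). These last calls were kept in 13 of 23 other settings for *Sesn1* and in 15 for *Sod1*, and each was lost without some single libraries (adjusted p up to 0.147 and 0.114 over the settings). After knockdown *Sesn1* fell by 0.14 without TVA (adjusted p = 0.0127 from limma; lost on the TPM scale), and *Sod1* fell by 0.19 with TVA present (adjusted p = 0.0165 from limma; kept in 19 of 23).

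Neither *Txn1* nor *Prdx3* was called for TVA after knockdown. *Txn1* had 101, 103 and 99.5 FPKM in si*Creb1* and 98.5 to 100.9 FPKM in si*Creb1* plus TVA, levels that overlap each other and lie between those of the siNTC groups. Knockdown raised it by 0.12 without TVA (adjusted p = 0.019 from limma; kept in 20 of 23 other settings) and lowered it by 0.17 with TVA (adjusted p = 0.0047 from limma; lost on the TPM scale). The TVA effect in si*Creb1* cells was lower than that in siNTC cells by a log2 difference of −0.29 (adjusted p = 0.00383 from limma). *Prdx3* had 45.2, 44.6 and 43.2 FPKM in si*Creb1* and 42.6, 44.6 and 43.5 FPKM in si*Creb1* plus TVA, with a difference of −0.23 (adjusted p = 0.0212 from limma). This call was kept in 15 of 22 other settings and lost with no trend, with limma-voom on all genes, and without siNTC replicate 3, si*Creb1* replicate 1 or 2, or si*Creb1* plus TVA replicate 1 or 3 (adjusted p up to 0.0626). For *Prdx3* the knockdown alone gave a rise of 0.17 (adjusted p = 0.0051 from limma), so si*Creb1* cells stood near the level of siNTC plus TVA. *Txnrd1* too had its lowest group mean in siNTC, 11.7 FPKM, with 12.5 to 13.1 FPKM in the other groups. Transferrin receptor, *Tfrc*, the cell's iron importer, was 51.4, 53.1 and 53.2 FPKM in siNTC and from 60.6 to 64.6 FPKM in the other 9 libraries.

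**Figure D4:**
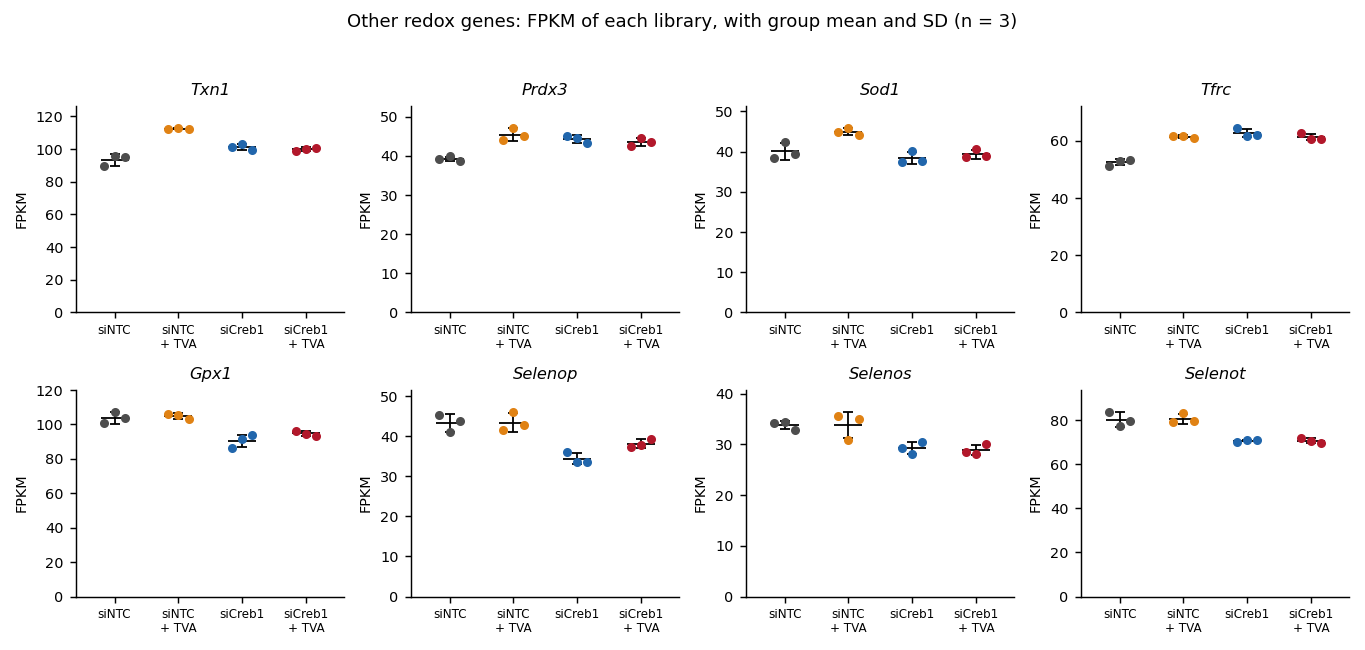
FPKM from 0 (vertical axis) in the 3 libraries of each group (horizontal axis), with group mean and SD, for 8 other redox genes. Txn1, Prdx3, Sod1 and Tfrc rose with TVA in siNTC cells, while Gpx1, Selenop, Selenos and Selenot lie lower in both si*Creb1* groups.

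*Gpx4* and *Txnrd1* are both selenoproteins, and the part of this in their levels was not tested. *Gpx4* fell after knockdown, and *Txnrd1* rose after knockdown without TVA. In the list of selenoproteins and their synthesis factors, which holds neither, 1 of 14 genes was higher and 3 lower after knockdown without TVA. With TVA, 0 were higher and 5 lower. Of all tested genes 6.52% were higher and 7.21% lower without TVA, and 4.64% and 5.51% with TVA. *Selenop*, a secreted selenium carrier, had 45.5, 41.0 and 43.9 FPKM in siNTC and 36.0, 33.6 and 33.7 FPKM in si*Creb1*, a fall of 0.33 on the log2 scale (adjusted p = 0.00202 from limma). With TVA present it fell by 0.18 (adjusted p = 0.0401 from limma; kept in 9 of 23 other settings). *Selenot*, of the endoplasmic reticulum, had 83.8, 77.3 and 79.9 FPKM in siNTC and 70.4, 71.0 and 70.9 FPKM in si*Creb1*, a fall of 0.18 (adjusted p = 0.00402 from limma). With TVA present *Selenot* fell by 0.19 (adjusted p = 0.00556 from limma). *Selenos*, which serves in the removal of misfolded proteins, fell by 0.20 without TVA and 0.22 with TVA (adjusted p = 0.025 and 0.0229 from limma), calls kept in 17 and 15 of 23 other settings. With TVA present *Selenof* and *Selenow* fell by 0.15 and 0.16 (adjusted p = 0.0245 and 0.0495 from limma), calls lost on the TPM scale like those of *Selenot* and *Selenos* there. Without TVA *Sepsecs*, which makes the selenocysteine tRNA, was the 1 gene that rose, by 0.21 (adjusted p = 0.0421 from limma), a call kept in 8 of 22 other settings. That of *Selenow* was kept in 7 of 23 and that of *Selenof* in 15 of 23. The TVA effect in siNTC cells was a rise of *Selenoh* alone in this list, by 0.26 (adjusted p = 0.0495 from limma), kept in 7 of 23 other settings.

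*Gpx1*, the cytosolic selenoenzyme, had 100.6, 107 and 104 FPKM in siNTC and 86.5, 91.3 and 93.6 FPKM in si*Creb1*, and it fell by 0.20 (adjusted p = 0.00347 from limma), and by 0.15 with TVA (adjusted p = 0.0202 from limma). The second call was kept in 17 of 23 other settings and lost with quantile normalization, with TPM, and without siNTC plus TVA replicate 1 or 2 or si*Creb1* plus TVA replicate 2 or 3, with a log2 change as small as −0.07. Of the 22 tested glutathione genes, 1 rose and 2 fell after knockdown without TVA, and 1 rose and 1 fell with TVA. The gene that rose in both was *Mgst2*, a microsomal glutathione transferase, by 0.25 and 0.29 (adjusted p = 0.00495 and 0.00447 from limma), and the second gene that fell was the mitochondrial glutaredoxin *Glrx5*, by 0.20 without TVA (adjusted p = 0.0258 from limma; kept in 16 of 23 other settings). TVA in siNTC cells changed 0 of the 22 glutathione genes by limma's adjusted p. Peroxiredoxin *Prdx5*, of the thioredoxin and peroxiredoxin list, fell by 0.26 after knockdown without TVA (adjusted p = 0.00165 from limma). With TVA it fell by 0.13 (adjusted p = 0.0464 from limma), a call kept in 6 of 23 other settings. The platelet markers are lower in the same libraries as *Gpx1* and *Gpx4*, and their part was not tested.

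Of 7 tested NRF2 detoxification targets, TVA in siNTC cells raised 0 and lowered 2. Epoxide hydrolase *Ephx1* had 26.4, 26.0 and 25.4 FPKM in siNTC and 22.4, 21.0 and 22.4 FPKM with TVA, a fall of 0.23 (adjusted p = 0.0066 from limma). Carbonyl reductase *Cbr1* had 15.9, 17.2 and 17.3 FPKM in siNTC and 14.6 to 15.1 FPKM with TVA, a fall of 0.16 (adjusted p = 0.0228 from limma) that was kept in 14 of 23 other settings. Both fell after knockdown without TVA too, *Ephx1* by 0.19 (adjusted p = 0.0124 from limma; lost on the TPM scale) and *Cbr1* by 0.21 (adjusted p = 0.0043 from limma). With TVA present knockdown lowered the aldehyde reductase *Akr1a1* by 0.15 (adjusted p = 0.00624 from limma), a call lost with quantile normalization and TPM. In the NADPH supply list 1 of 8 fell, the pentose phosphate enzyme *Pgd*, by 0.15 (adjusted p = 0.0131 from limma; lost on the TPM scale and with only the 6 libraries compared). Its neighbour in that pathway, *Pgls*, fell by 0.18 after knockdown without TVA (adjusted p = 0.0219 from limma; kept in 17 of 23 other settings). Ferritin chains *Ftl1* and *Fth1*, which store iron and are NRF2 targets, had TVA effects of −0.17 and −0.10 in siNTC cells (adjusted p = 0.0715 and 0.129 from limma) and fell by 0.21 and 0.17 after knockdown without TVA (adjusted p = 0.017 and 0.0092 from limma), calls kept in 18 and 22 of 23 other settings.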

How the data were processed

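RNA-seq was measured in 12 libraries, 3 per group, grouped and numbered by the sample labels. The authors deposited 1 table of FPKM values per library for 54532 genes; the submitters' processing notes name the build GRCm38 (mm10). The aligner, counter, annotation and normalization are not given in the sources used here. FPKM multiplied by gene length was a whole multiple of 1 step, within 0.1 of a read, for at least 99.995% of values above 0, which gave 16660234 to 24602484 reads per library; FPKM keeps no other record of depth.

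The members and gene lists were chosen with earlier results of these data known. The 11550 genes with a mean of at least 1 FPKM were tested on log2(FPKM + 1), a scale that understates the change of low genes, with limma 3.58.1 in R 4.3.3, in 1 fit with a coefficient per group and a mean-variance trend; p-values were Benjamini-Hochberg adjusted over these genes, with a threshold of 0.05. A permutation of 3 against 3 libraries cannot give a p under 0.1. Alternatives were a pseudocount of 0.1, no filter, a mean of at least 5 FPKM, quantile normalization, TPM, median-ratio scaling, the replicate number as a block, no trend, limma-voom on recovered reads, only the libraries compared, and each library left out; limma-voom on all 13866 genes with a mean of at least 10 reads and the addition of pseudogene reads to *Gpx4* were added after seeing the data. Near-identical copies are transcripts of GENCODE vM21 with at least 95% identity over 300 bases to a transcript of a member, and were looked for only for the members. Only the limma fit on log2(FPKM + 1) was tried on simulated data, with planted changes larger than those of the members tested with it. The limma-voom fits were not tried in this way.

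Named genes are the members, *Creb1*, *Nfe2l2*, *Keap1*, *Bach1*, per list and comparison up to 5 called genes with the largest change, and for called members the 3 genes most like them; *Slc3a2*, *Gss*, *Txnip* and the pseudogene *Gpx4-ps2* were chosen after their values were seen. *Nnt* and *Ddit3* matched 2 rows each and were left out. Figures were drawn with matplotlib 3.10.9.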

Additional observations from a re-analysis of the deposited data

Results flagged for a closer look

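The effect of TVA differed between siNTC and si*Creb1* cells in 4 other genes of the redox and ATF4 target lists. The measure was limma's interaction term with an adjusted p under 0.05, which no member met. Subtracting the effect in siNTC cells from that after knockdown gave −0.29 on the log2 scale for *Txn1* (adjusted p = 0.00383 from limma), −0.23 for *Prdx3* (adjusted p = 0.0212; kept in 15 of 22 other settings), −0.26 for *Tfrc* (adjusted p = 0.0045; lost on the TPM scale) and −0.35 for *Psat1*, an enzyme of serine synthesis (adjusted p = 0.00152). In each the 3 siNTC libraries were lower than the other 9. Groups of 3 libraries were not tested for single outlying libraries.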

How the results depend on the processing

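Over 24 other settings the members called were 0 to 1 for TVA in siNTC cells (main 0), 1 to 3 for si*Creb1* against siNTC without TVA (main 2), and equal to the main count in the other comparisons. Fits of only the 6 libraries compared gave 1 member for the knockdown without TVA; leaving out 1 library gave 1 to 2 there, and 0 to 1 for TVA in siNTC cells. Of the other pathway genes, TVA in siNTC cells changed 11, but 7 with TPM, 6 with only the libraries compared, and 7 to 13 without 1 library. TVA in si*Creb1* cells changed 0, but 1 with either limma-voom fit, and 0 to 1 without 1 library. Knockdown without TVA changed 26, but 17 with no filter, 14 with TPM, 16 with only the libraries compared, and 17 to 26 without 1 library. Knockdown with TVA changed 14, but 7 with no filter, 6 with quantile normalization, 3 with TPM, 9 with no trend, and 5 to 15 without 1 library; the interaction ranged from 3 to 4 without 1 library. Some of these fits used fewer libraries or more genes, and the cause of the changed counts was not tested. Of 104 gene and comparison values none changed direction while called; 253 of their recalculated values lost the threshold and 2 gained it. No scaling moved the median of all genes by over 0.1 on the log2 scale.

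Same-numbered libraries did not deviate together over all tested genes (18 correlations from −0.06 to 0.06). A pairing that touches few genes could be missed by this check. With the replicate block the counts were 0, 0, 2, 1 and 0 members and 10, 0, 25, 10 and 4 other genes, in the order given, with the interaction last. Depth limits *Hmox1*, *Nqo1*, *Slc7a11* and *Srxn1*. The limma-voom intervals of *Hmox1*, *Slc7a11* and *Srxn1* span large changes, and *Nqo1* had too few reads for one.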

Other observations

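Stress genes outside the antioxidant defence were also read. Of 7 tested ATF4 targets, the amino acid stress genes, TVA in siNTC cells raised 1 and lowered 0. It was *Psat1*, with 12.47, 12.53 and 12.45 FPKM in siNTC and 16.2, 16.8 and 15.8 FPKM with TVA, a rise of 0.36 on the log2 scale (adjusted p = 3.52e-05 from limma). *Psat1* rose by 0.33 after knockdown without TVA too (adjusted p = 8.7e-05 from limma), while *Atf4* itself fell by 0.22 (adjusted p = 0.0044 from limma) and the stress pseudokinase *Trib3* by 0.35 (adjusted p = 0.0222 from limma; kept in 16 of 23 other settings). With TVA present *Trib3* fell by 0.41 (adjusted p = 0.0143 from limma; lost without si*Creb1* plus TVA replicate 2), *Atf4* by 0.15 (adjusted p = 0.0315 from limma) and the proline synthesis gene *Aldh18a1* by 0.16 (adjusted p = 0.0462 from limma). The call of *Atf4* with TVA was kept in 13 of 23 other settings (adjusted p up to 0.226; lost with TPM, quantile normalization and the replicate block among others) and that of *Aldh18a1* in 7 of 23.

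Of 7 tested genes of lipid peroxidation and ferroptosis, TVA changed 0 in siNTC cells and 0 in si*Creb1* cells by limma's adjusted p. Knockdown without TVA lowered 2, the lipoxygenase *Alox12* by 0.34 (adjusted p = 0.0453 from limma; kept in 8 of 22 other settings), a gene also known from platelets, and the electron donor *Por* by 0.17 (adjusted p = 0.023 from limma; kept in 15 of 23). Of 4 tested genes of the NADPH oxidase, knockdown without TVA lowered *Rac2* by 0.10 (adjusted p = 0.0094 from limma), a call lost with quantile normalization, with TPM and with only the 6 libraries compared, where the log2 change was as small as −0.03 and the adjusted p up to 0.54.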
